A study of Homo sapiens with 6 samples.

Results

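The genes compared here are 10 markers used to recognise lung cancer stem cells, namely the surface proteins ALCAM, CD44, PROM1, CD24 and EPCAM, the aldehyde dehydrogenases ALDH1A1 and ALDH1A3, and the nuclear factors SOX2, BMI1 and POU5F1. They were chosen by gene symbol, and each matched 1 of the 26025 genes of the deposited table. RNA was sequenced from NCI-H1299, an established non-small cell lung cancer cell line from a lymph node metastasis that lacks functional p53. All cells were grown in RPMI-1640 with 10% fetal bovine serum, held in DMEM for 8 to 12 h and then kept for 48 h in RPMI-1640 with 2% serum. The 3 NE libraries received 10 µM norepinephrine (NE) during those 48 h and the 3 Ctrl libraries received vehicle, which the labels name both DMSO and PBS. The comparison asks whether NE changed the RNA of stemness markers in these cells. The labels do not say whether the libraries of a group came from separate cultures, so the p-values measure the spread between these libraries only.

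Cancer stem cells are tumour cells that renew themselves and can regrow the tumour, and in lung cancer they are commonly sorted by surface proteins or by aldehyde dehydrogenase activity. ALCAM (CD166) is an adhesion molecule that binds itself on neighbouring cells, CD44 is the receptor of hyaluronan, PROM1 (CD133) is a protein of membrane protrusions, CD24 is a small mucin-like adhesion protein, and EPCAM is an adhesion protein of epithelial cells. ALDH1A1 and ALDH1A3 oxidise retinal to retinoic acid and are measured by the ALDEFLUOR assay. SOX2 and POU5F1 (OCT4) are transcription factors of pluripotent cells, and BMI1 is a Polycomb protein that represses the CDKN2A locus.

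Between 16852751 and 17979206 reads fell on genes in each library. The values given are normalized counts, that is, reads on a gene divided by 1 size factor per library. Ctrl replicate 3 stood apart, since 7305 genes had no read there, compared with 4829 in Ctrl replicate 1, 4833 in Ctrl replicate 2 and 3954 to 4416 in NE libraries. The 8 tested cAMP-responsive genes were all higher in NE-treated cells, beside 24.6% of all tested genes. Their median log2 fold change was 3.13, or 3.12 after the GC correction. The largest were those of NR4A2, NR4A3, CREM and PDE4B, at 6.51, 5.92, 3.33 and 3.25. SIK1, also chosen, was not listed. These genes were chosen with earlier results of these data known, so they describe the response and are not an independent check of the treatment. Across 14955 tested genes, which are not independent replicates, the fold change fell with exon GC content (Spearman correlation -0.64 with the log2 fold change). The difference between Ctrl replicate 3 and the other Ctrl libraries followed GC content in the same way, at -0.51. Fold changes corrected for this trend are given beside the main ones for the markers and for most other genes named, and the part of GC content or of Ctrl replicate 3 in any result was not tested. Of 11 airway and lung cell markers, KRT8, KRT18 and VIM passed the minimum mean, and all 3 were lower in NE-treated cells, with log2 fold changes of -1.06, -1.62 and -0.38. Corrected for GC content, KRT8 was at -0.59 and KRT18 at -1.15, both still called, and VIM was at -0.20 without a call (limma adjusted p = 0.362). CDH1 had 4 reads or fewer in each library, and SFTPC was not listed. The 5 neuroendocrine markers summed to 19.9 to 33.3 normalized counts in Ctrl and 11.9 to 23.7 in NE libraries, and SYP, the tested one, had a log2 fold change of -0.08 without a call (0.27 after the GC correction). The 9 markers of blood, endothelial and fibroblast cells summed to 53.9 to 73.3 in Ctrl and 39.7 to 66.2 in NE libraries. Of these, COL1A1 was lower at -1.26 (limma adjusted p = 0.0251) and at -0.68 without a call after the GC correction, PECAM1 had -0.06 without a call (0.04 after the GC correction), and PTPRC and CD3E were not listed. In bulk RNA, fewer cells of a type and less RNA per cell cannot be told apart.

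ALCAM and BMI1 were significantly upregulated in NE-treated cells, CD44 was the most abundant marker and was not separated between the groups, and PROM1, ALDH1A1, EPCAM, ALDH1A3 and POU5F1 had at most 11 reads in a library. The test was limma on log2(value + 1) over the 15013 genes whose mean reached 10 normalized counts, and calls were made where the Benjamini-Hochberg adjusted p was under 0.05. Thus 2 of the 10 markers were higher and 0 were lower, 3 were tested without a call and 5 were under the minimum mean. Among all tested genes, 24.6% were higher and 25.5% lower by the same rule. When the log2 fold change also had to reach 1 in size (the fold criterion), the 2 markers were called again, whereas 7.47% of all tested genes were higher and 6.55% lower.

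The 2 upregulated markers have the following RefSeq promoter windows on GRCh38.p14, each from 250 bases before to 50 bases after the transcription start, read 5′ to 3′ on the plus strand, on which both genes lie. They are shown because NE signals through cAMP to CREB, which binds the cAMP response element (CRE), and because the study follows a factor that binds the E-box. ALCAM has 1 listed window and BMI1 has 2, of which the one at the annotated gene start is printed. The ALCAM window lies at chr3:105366659-105366958 and the BMI1 window at chr10:22320849-22321148. Capitals mark the E-box letters CACGTG.
ALCAM: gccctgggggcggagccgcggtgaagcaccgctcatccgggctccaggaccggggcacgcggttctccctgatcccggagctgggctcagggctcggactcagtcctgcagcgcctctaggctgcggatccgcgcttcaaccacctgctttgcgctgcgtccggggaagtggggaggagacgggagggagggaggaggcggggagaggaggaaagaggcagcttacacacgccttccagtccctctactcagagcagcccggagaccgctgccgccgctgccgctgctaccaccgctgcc
BMI1: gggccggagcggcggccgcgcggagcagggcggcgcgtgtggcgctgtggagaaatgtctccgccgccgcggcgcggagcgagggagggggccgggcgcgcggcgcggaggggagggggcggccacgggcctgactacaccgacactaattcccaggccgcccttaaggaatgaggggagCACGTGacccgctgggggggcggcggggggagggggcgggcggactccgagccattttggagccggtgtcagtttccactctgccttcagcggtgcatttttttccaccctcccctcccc
Neither printed window held the CRE letters TGACGTCA or the shorter site TGACG that CREB also binds, searched on both strands. The printed BMI1 window held 1 E-box, 70 bases before the start, and the other BMI1 window, at chr10:22321706-22322005, held none of these letters. Of all 35116 RefSeq windows of this length, 1.85% held the full CRE, 24.6% the shorter site, which is contained in the full CRE, and 7.26% the E-box. Windows were listed for 8 of the 10 markers, and the shorter site was found in those of CD24 and SOX2 only. EPCAM and POU5F1 had no matching entry. A match of letters is a description of the window and not a measured binding site.

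Among the surface markers, ALCAM (ENSG00000170017) lies on the plus strand of chromosome 3 of hg38, from 105366909 to 105576900. Its normalized counts were 467.1, 553.8 and 782.0 in Ctrl replicates 1, 2 and 3. In NE replicates 1, 2 and 3 they were 1241, 1199 and 1097. All 3 NE libraries lay above all Ctrl libraries, and the highest Ctrl value was that of replicate 3. Ctrl averaged 600.9 ± 162.7 (SD, n = 3) and NE-treated cells 1179 ± 73.9 (SD, n = 3). The log2 fold change was 1.003 (SE 0.18, 95% interval 0.60 to 1.41, limma adjusted p = 0.00176), a fold of 2.00. The groups did not overlap (p = 0.1 in a two-sided exact permutation test, which cannot go lower with 3 against 3), as was the case, with NE above Ctrl, for 29.7% of all tested genes. The exons of ALCAM have 36.8% GC, and the median log2 fold change of tested genes in the lowest of 4 equal GC bins was 0.63. After the GC correction its log2 fold change was 0.33 (limma adjusted p = 0.0330), under the fold criterion, and with the GC correction and a replicate block together the adjusted p was 0.0729 by limma. The fold criterion was met in 2 of the 6 leave-one-library-out fits, and the adjusted p stayed at or under 0.0132 in all 6.

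CD44 (ENSG00000026508), on chromosome 11 from 35138882 to 35232402 of the plus strand, was found at 13564, 13559 and 14795 normalized counts in Ctrl replicates 1, 2 and 3. It had 16410, 14369 and 13631 in the NE libraries. The 2 groups overlapped, with Ctrl replicate 3 above NE replicates 2 and 3. The log2 fold change was 0.08 (SE 0.10, 95% interval -0.15 to 0.32, limma adjusted p = 0.544). The direction of CD44 depended on the scaling. Quantile normalization gave 0.43 (limma adjusted p = 0.00981), while the GC correction gave -0.32 (limma adjusted p = 0.0225). Its exons have 42.3% GC, and the median of the tested genes in that GC bin, the next to lowest, was 0.25. CD44-AS1 shares 84 exon bases with CD44 on the opposite strand, 0.84% of the exons of CD44. Reads within that stretch cannot be assigned to either gene, because the library kit as named does not mark strand.

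CD24 (ENSG00000272398), on the minus strand of chromosome 6 from 106969831 to 106975627, had 22.0, 45.6 and 54.9 normalized counts in Ctrl and 87.9, 54.2 and 50.3 in NE libraries. NE replicate 1 was the highest and Ctrl replicate 1 the lowest, and the other 4 libraries lay between 45.6 and 54.9. The log2 fold change was 0.69 (SE 0.38, 95% interval -0.16 to 1.54, limma adjusted p = 0.154). Without Ctrl replicate 3 it was 0.95 (limma adjusted p = 0.0296), and without Ctrl replicate 1 it was 0.31 (limma adjusted p = 0.473). The GC correction gave 0.84 (limma adjusted p = 0.118).

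EPCAM (ENSG00000119888), on the plus strand of chromosome 2 from 47345158 to 47387601, had 0, 0 and 4 reads in Ctrl and 1, 5 and 2 reads in NE libraries. PROM1 (ENSG00000007062), on the minus strand of chromosome 4 from 15963076 to 16084378, had 0 reads in every Ctrl library and 0, 5 and 1 reads in the NE libraries. A library with 0 reads allows up to 0.167 to 0.178 CPM (reads scaled to the library total), taking 3 reads as the limit and covering counting error only. A difference of EPCAM or PROM1 between the groups was not detectable at this depth. CD44 made up 94.95%, 93.7% and 92.0% of the summed FPKM of the 5 surface markers in Ctrl and 89.1%, 88.5% and 88.9% in NE libraries, a ratio within each library that a single scaling factor per library does not change. FPKM was recomputed here from the recovered reads and the merged exons.

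**Figure D1:**
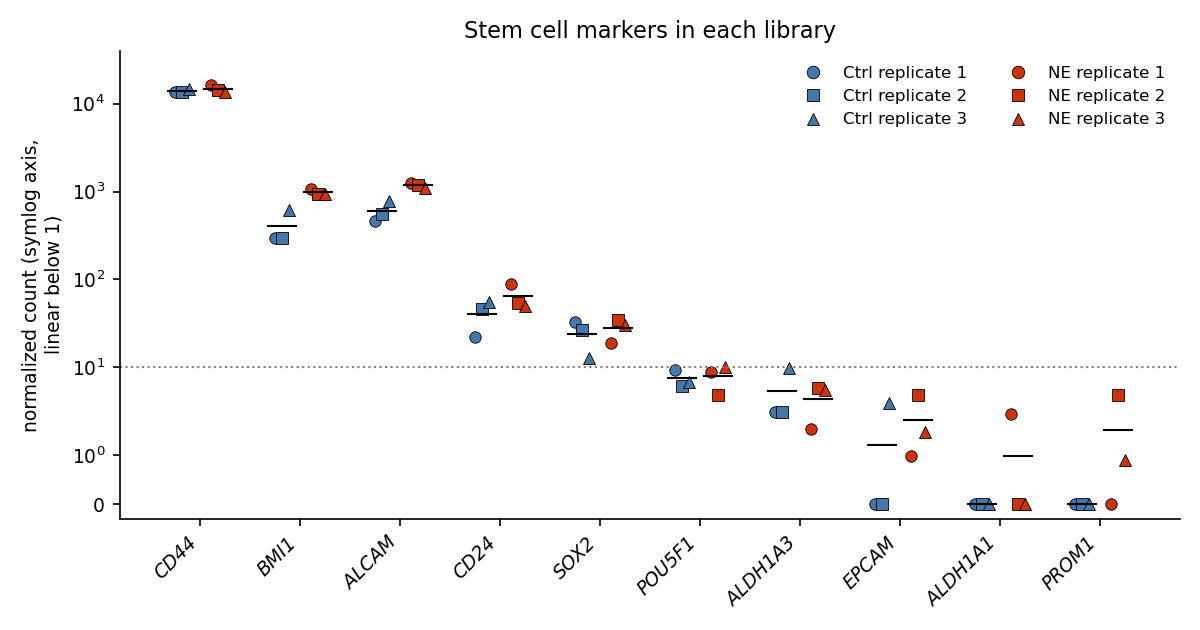
Normalized counts of the 10 markers in each of the 6 libraries, on an axis that is logarithmic above 1 and linear below, ordered by FPKM in Ctrl. Points are libraries, black bars are group means and the dotted line is the minimum mean of 10. ALCAM and BMI1 are the 2 markers whose NE libraries all lie above the Ctrl libraries, as for 29.7% of all tested genes.

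Of the 2 aldehyde dehydrogenases, neither passed the minimum mean. ALDH1A1 (ENSG00000165092), on the minus strand of chromosome 9 from 72900671 to 73080442, had 0 reads in each Ctrl library and 3, 0 and 0 reads in the NE libraries. ALDH1A3 (ENSG00000184254), on the plus strand of chromosome 15 from 100877714 to 100916626, had 3, 3 and 10 reads in Ctrl and 2, 6 and 6 in NE libraries, with the highest value in Ctrl replicate 3. ALDH1A3-AS1 shares 1715 exon bases with ALDH1A3 on the opposite strand, 32.15% of the exons of ALDH1A3, so even these few reads are uncertain. The mean level was 0.0562 FPKM in Ctrl and 0.0512 FPKM in NE-treated cells, and no difference was detectable at this depth.

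The aldehyde dehydrogenases were taken as a family of 19 genes that includes both markers, of which 16 were listed and 12 tested. The largest share of the family FPKM in Ctrl, 28.5%, was that of ALDH18A1, which makes proline precursors, with 31.6 ± 3.04 FPKM (SD, n = 3) in Ctrl, then from ALDH9A1, ALDH3B1 and ALDH1B1, with means of 20.2, 16.5 and 13.3 FPKM. Together ALDH1A1 and ALDH1A3 had 0.0320 to 0.104 FPKM in the Ctrl libraries and 0.0653 to 0.0826 in the NE libraries, beside a family sum of 108 to 114 and 104 to 107 FPKM. Of the 12 tested genes 4 were higher and 3 lower, beside 24.6% and 25.5% of all tested genes. None reached the fold criterion, with log2 fold changes from -0.59 to 0.89 and a median of -0.27. Named after their values were seen, the 4 higher genes were ALDH1L2, ALDH6A1, ALDH5A1 and ALDH3A2, mitochondrial or membrane-bound enzymes of folate, amino acid, GABA and fatty aldehyde breakdown. Their log2 fold changes were 0.89, 0.61, 0.52 and 0.42. The 3 lower genes were ALDH16A1, ALDH3B1 and ALDH18A1, at -0.59, -0.41 and -0.38. The higher genes had 41.4% to 45.7% GC and the lower genes 49.8% to 61.4%. After the GC correction 0 of the 12 were higher and 2, ALDH9A1 and ALDH7A1, were lower. By that fit 2176 of all 14955 genes were higher and 2644 lower.

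**Figure D2:**
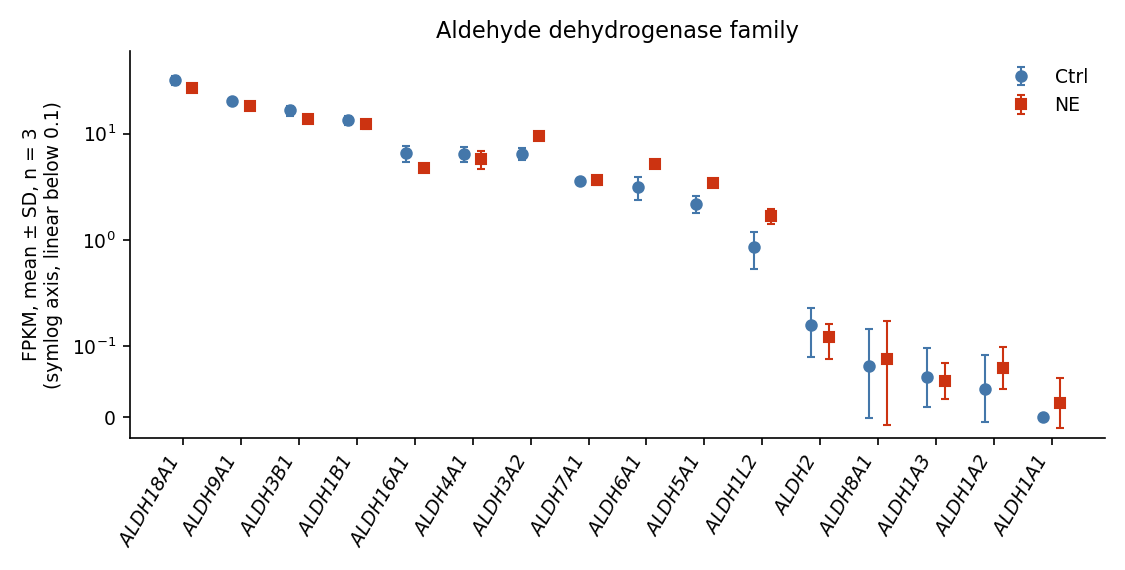
Levels of the 16 listed aldehyde dehydrogenase genes as FPKM, mean ± SD of 3 libraries per group, on an axis that is logarithmic above 0.1 and linear below. ALDH1A3 and ALDH1A1 lie under 0.1 FPKM, against 31.6 for ALDH18A1 in Ctrl; over all tested genes FPKM in NE libraries is shifted by 0.15 on the log2 scale, so the figure compares levels between genes.

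The retinoic acid pathway, in which the ALDH1A enzymes make the ligand, had 8 tested members of 15. RDH10, which makes retinal from retinol, was higher, at a log2 fold change of 0.67, and the other 7 were lower. Among all tested genes, 24.6% were higher and 25.5% lower by the same rule. The median over the 8 was -0.62, beside 0.01 over all tested genes and -0.63 over those in the highest of the 4 GC bins. Corrected for GC content, the median over the 8 was -0.05. STRA6, the receptor that takes up retinol from its carrier protein, was the 1 member past the fold criterion, from 267 normalized counts in Ctrl to 76.0 in NE-treated cells (log2 fold change -1.80, SE 0.16, limma adjusted p = 9.23e-05). The 7 lower members had 55.1% to 63.5% GC. After the GC correction RDH10 was higher at 0.57 and STRA6 lower at -1.28, and the other 6 were not called.

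Among the factors, BMI1 (ENSG00000168283) lies on the plus strand of chromosome 10, from 22321099 to 22331484. Its normalized counts were 296.4, 294.5 and 623.2 in Ctrl replicates 1, 2 and 3. In NE replicates 1, 2 and 3 they were 1074, 947.2 and 935.7. All NE libraries lay above all Ctrl libraries, as for 29.7% of all tested genes, and Ctrl replicate 3 was far above the other 2. Ctrl averaged 404.7 ± 189.3 (SD, n = 3) and NE-treated cells 985.7 ± 76.8 (SD, n = 3). The log2 fold change was 1.37 (SE 0.26, 95% interval 0.78 to 1.96, limma adjusted p = 0.00243), a fold of 2.59. It stayed between 1.19 and 1.73 with an adjusted p at or under 0.0183 by limma in the 6 leave-one-library-out fits. BMI1 has 39.9% GC in its exons, and after the GC correction its log2 fold change was 0.83 (limma adjusted p = 0.00715), under the fold criterion. The readthrough gene COMMD3-BMI1 shares 1000 exon bases with BMI1, 22.75% of its exons, and was not listed in the table, so the assignment of reads in that stretch is uncertain. COMMD3, the neighbour just upstream, had a log2 fold change of 0.23 (limma adjusted p = 0.241), which turned to -0.44 with the GC correction (limma adjusted p = 0.138).

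SOX2 (ENSG00000181449), a gene of 1 exon on the plus strand of chromosome 3 from 181711925 to 181714436, had 32.5, 27.0 and 12.7 normalized counts in Ctrl and 18.8, 34.9 and 30.2 in NE libraries. The lowest value was in Ctrl replicate 3 and the groups overlapped. The log2 fold change was 0.26 (SE 0.43, 95% interval -0.71 to 1.23, limma adjusted p = 0.635). Without Ctrl replicate 3 it was -0.12 (limma adjusted p = 0.781), and after the GC correction it was 0.47 (limma adjusted p = 0.411). SOX2 lies within SOX2-OT on the same strand without shared exon bases, and SOX2-OT had 0 to 6 reads per library. POU5F1 (ENSG00000204531), on the minus strand of chromosome 6 from 31164337 to 31180731, had 9, 6 and 7 reads in Ctrl and 9, 5 and 11 reads in NE libraries, too few for a test under the filter. It shares 248 exon bases with TCF19 on the opposite strand, which was lower at a log2 fold change of -0.80 and at -0.51 after the GC correction, and copies of POU5F1 elsewhere in the genome could share its reads. NANOG, another pluripotency factor, was not listed.

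**Figure D3:**
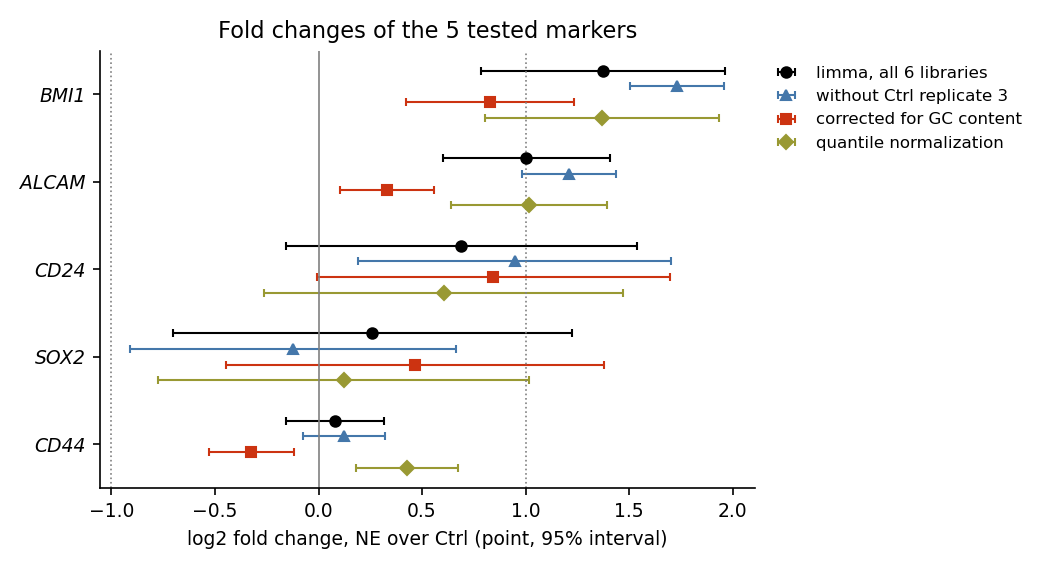
Log2 fold changes of the 5 tested markers, NE over Ctrl, with 95% intervals, from limma on all 6 libraries, without Ctrl replicate 3, after correction for GC content and after quantile normalization. The BMI1 interval lies above 0 in all 4, ALCAM falls from 1.003 to 0.33 with the GC correction, and CD44 moves from -0.32 to 0.43.

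The partners of BMI1 in Polycomb repressive complex 1 and the genes that BMI1 represses were listed as 17 genes, all tested. Of these, 5 were higher and 6 lower, beside 24.6% and 25.5% of all tested genes, with a median log2 fold change of -0.07. PHC2, a subunit that polymerises the complex, was the 1 member past the fold criterion, from 8181 normalized counts in Ctrl to 3151 in NE-treated cells (log2 fold change -1.36, limma adjusted p = 0.000155). Named after their values were seen, the 5 higher genes were PCGF5, PHC3, CDKN2B, RNF2 and PCGF3, with log2 fold changes of 0.89, 0.89, 0.84, 0.74 and 0.35. RNF2 is a catalytic partner of BMI1 and was at 0.11 after the GC correction (limma adjusted p = 0.463). RING1, the other catalytic partner in the list, was lower at -0.58 (limma adjusted p = 0.0442). Corrected for GC content, RING1 was at 0.04 without a call (limma adjusted p = 0.848). CDKN2A, the best known target repressed by BMI1, was lower at -0.64 (limma adjusted p = 0.00313), whereas CDKN2B, which lies beside it, was higher. The higher genes had 36.7% to 48.8% GC and the lower genes 56.0% to 61.2%. After the GC correction CBX8, CDKN2B and PCGF3 were among the higher members, at 1.14, 0.64 and 0.43, and PHC2 was lower at -0.76. CDKN2A was then at -0.16 (limma adjusted p = 0.275).

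**Figure D4:**
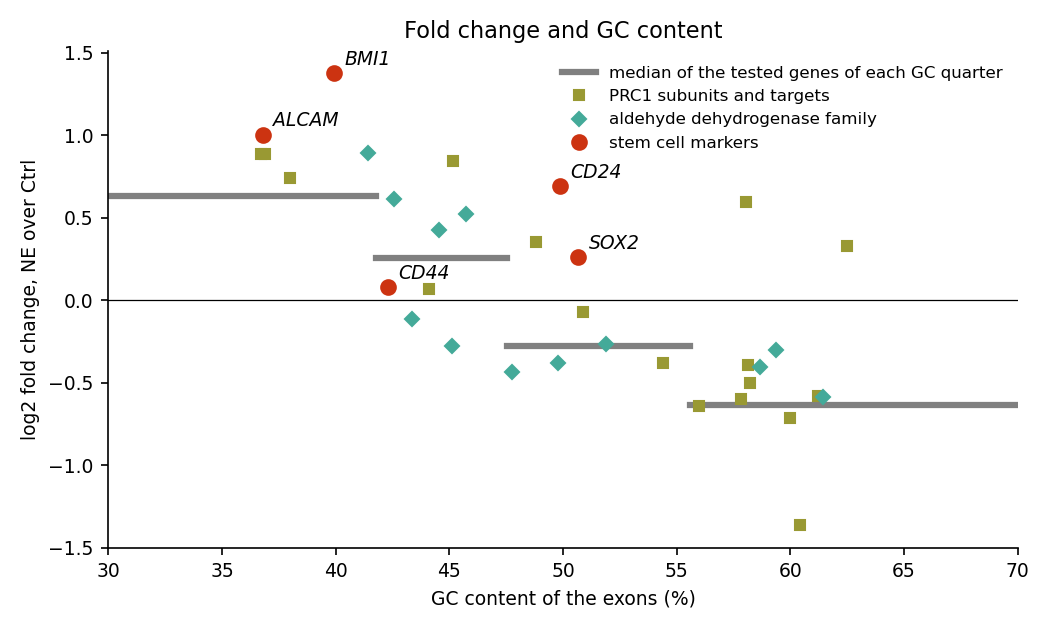
Log2 fold change, NE over Ctrl, against the GC content of the exons for the 5 tested stem cell markers, the PRC1 list and the aldehyde dehydrogenase family. Grey bars are the medians of all tested genes in each of 4 equal GC bins, from 0.63 in the lowest to -0.63 in the highest; BMI1, ALCAM, CD24 and SOX2 lie above the bar of their bin and CD44 below it.

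The position of Ctrl replicate 3 between the groups differed from marker to marker. On the log2 scale it was above the mean of the other 2 Ctrl libraries by 0.62 for ALCAM, 1.07 for BMI1, 0.77 for CD24 and 0.13 for CD44. For SOX2 it was below them, at -1.15. The mean of the NE libraries was above Ctrl replicate 3 by 0.59 for ALCAM and by 0.66 for BMI1, against 1.21 and 1.73 above the other 2. For CD24 the difference from Ctrl replicate 3 was 0.18 and for CD44 it was -0.0036. These differences rest on 1 library and have no replicate check.

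Levels were compared between markers per length, as FPKM. In Ctrl, CD44 had 77.7 ± 5.49 FPKM (SD, n = 3), above 97.2% of 15661 protein-coding genes. BMI1 followed with 5.14 ± 2.52 FPKM and ALCAM with 4.66 ± 1.36 FPKM, and their Ctrl libraries overlapped. CD24 and SOX2, with 0.735 and 0.529 FPKM, also overlapped with each other but lay below ALCAM in every library. POU5F1 had 0.145 FPKM, below SOX2 in every Ctrl library. ALDH1A3, EPCAM, ALDH1A1 and PROM1 had at most 0.0562 FPKM, and neighbours among these 4 overlapped. In NE-treated cells BMI1 and ALCAM had 13.7 ± 0.549 and 10.0 ± 0.267 FPKM (SD, n = 3), where BMI1 lay above ALCAM in all 3 libraries.

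A list of 15 other stem cell markers had 13 listed and 8 tested members. Of these 4 were higher and 2 lower, beside 24.6% and 25.5% of all tested genes. MYC, the growth-promoting transcription factor, was lower, from 3197 normalized counts in Ctrl to 1239 in NE-treated cells (log2 fold change -1.36, limma adjusted p = 0.000165). PLAUR, the urokinase receptor, was lower, from 9553 to 3703 (log2 fold change -1.37, limma adjusted p = 9.85e-05). Both still met the fold criterion with the GC correction, at -1.09 and -1.05. ABCG2, the drug efflux pump that marks side population cells, had 49.2, 49.8 and 13.7 normalized counts in Ctrl and 130.4, 77.5 and 71.3 in NE libraries, a log2 fold change of 1.44 (limma adjusted p = 0.0316). ABCG2 was called in 3 of the 6 leave-one-library-out fits, with 0.84 without Ctrl replicate 3, the lowest library, and was at 1.05 after the GC correction (limma adjusted p = 0.132). CXCR4, the receptor of the chemokine CXCL12, had a log2 fold change of 1.04 (limma adjusted p = 0.0484) and was called in 1 of those 6 fits and in 3 of 17 alternatives in all. MSI2 and LIN28B, RNA-binding proteins of progenitor cells, were higher at 0.87 and 0.84, and at 0.83 and 0.29 after the GC correction, where LIN28B was not called. ITGA6 and KLF4 had -0.32 and -0.16 without a call. After the GC correction ITGA6 was lower at -0.72 (limma adjusted p = 0.000454) and KLF4 higher at 0.39 (limma adjusted p = 0.0284). By that fit 3 of the 8 tested members were higher and 3 lower, beside 2176 higher and 2644 lower of all 14955 genes. The other 5 listed members were under the minimum mean and were not tested. LGR5, a stem cell receptor of the Wnt pathway, had 0 reads in each Ctrl library and 6, 2 and 2 reads in the NE libraries. KIT had 0, 1 and 0 reads in Ctrl and 2, 8 and 3 in NE libraries. NES went the other way, with 9, 8 and 14 reads in Ctrl and 4, 1 and 3 in NE libraries. For LGR6 and MSI1 the groups overlapped.

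Of the pluripotency and SOX factors, 4 of 15 were tested. SOX9 and SOX4 were lower, at -0.78 and -0.61, KLF5 was higher at 0.54, and FOXD3 had -0.22 without a call. With the GC correction SOX9 was still lower, at -0.55, whereas SOX4 at -0.30 and KLF5 at 0.30 were not called (limma adjusted p = 0.163 and 0.162). Among ligands and partners of CD44, 3 of the 12 tested genes were higher and 4 lower, beside 24.6% and 25.5% of all tested genes. MMP14, the membrane protease that cuts CD44, was the 1 member past the fold criterion, from 7348.5 normalized counts in Ctrl to 1700.3 in NE-treated cells (log2 fold change -2.08, limma adjusted p = 7.63e-05), and was at -1.52 after the GC correction. Named after their values were seen, the 3 higher genes were HMMR, a second hyaluronan receptor, ADAM10, a sheddase, and RDX, a linker to actin, at 0.86, 0.82 and 0.72. All 3 have 37.1% to 40.2% GC, and none was called after the GC correction. Besides MMP14, the lower genes were NF2, HYAL2 and MSN, at -0.90, -0.70 and -0.47. With the GC correction NF2 and MSN, a linker to actin like RDX, were still lower, at -0.47 and -0.62. HYAL2 was then at -0.07 without a call. Among partners and proteases of ALCAM and EPCAM, 3 of the 10 tested genes were higher and 3 lower, beside the same 24.6% and 25.5%. NRCAM, a neural adhesion molecule, was higher at 1.25 (limma adjusted p = 0.00339) and at 0.84 after the GC correction. Named after their values were seen, the 3 lower genes were PSEN2, a subunit of gamma-secretase, CD9, a tetraspanin found with ALCAM, and FHL2, a partner of the cut EPCAM tail, at -0.81, -0.68 and -0.63. All 3 were still lower after the GC correction, at -0.66, -0.44 and -0.49. CLDN7, a partner of EPCAM in epithelial cells, was not listed.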

How the data were processed

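RNA was measured by RNA-seq in 6 libraries, 3 per group, grouped by the labels. Per the labels and methods, the authors aligned reads to hg38 with HISAT2 2.0.5 and counted them with featureCounts 1.5.0-p3. The deposited values are a signal, namely reads counted on each gene over a size factor of the library, although the methods describe FPKM. Every value was a whole multiple of the value of 1 read (100% within a tolerance of 0.01), which gave the reads back. Genes with a mean of at least 10 were tested with limma 3.58.1 on log2(value + 1), with Benjamini-Hochberg adjustment over 15013 genes; such fold changes understate those of low genes. FPKM and exon GC content were computed from GENCODE release 44, with 25813 of 26025 genes matched. The GC correction subtracted, in each library, a natural spline of GC content (5 degrees of freedom). Alternatives were 2 other pseudocounts, no filter, TMM and quantile scaling, a replicate block, count models on those reads (DESeq2 1.42.0, edgeR 4.0.16), and leaving out each library. On the reads, edgeR called 3577 genes higher and 3971 lower. The fits were run on simulated counts without a GC trend and without a library that stood apart. That run checked the code and not how the fits behave on these data. All 10 markers are named with their values, and from other lists the genes past both thresholds, up to 4 per direction, with lists of at most 3 tested genes in full. The markers and lists were chosen with earlier results of these data known.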

Additional observations from a re-analysis of the deposited data

How the results depend on the processing

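Under the GC correction 2176 of 14955 genes were higher and 2644 lower. Of these, 548 higher and 343 lower genes met the fold criterion. CD44 was the 1 marker that was lower, at -0.32, and 0 markers were higher with the fold criterion. With the GC correction and the replicate block together 1633 genes were higher and 2035 lower, 474 and 317 with the fold criterion. There, 1 marker, BMI1, was higher, 1, CD44 at -0.32, was lower, 0 were higher with the fold criterion, and ALCAM was at 0.33 (adjusted p = 0.0729 from limma). With the GC correction and without Ctrl replicate 3, an alternative chosen after seeing the data, 650 genes were higher and 523 lower with the fold criterion, CD44 was the 1 lower marker at -0.35, and CD24 was higher at 1.13 (adjusted p = 0.0232 from limma). In each of these 3 settings 5 genes of the other lists were lower with the fold criterion, against 8 in the main result. With a pseudocount of 5, TMM scaling, edgeR or DESeq2, 1 marker, BMI1, was higher with the fold criterion, since ALCAM fell just under 1, and quantile normalization gave 0.43 for CD44 (adjusted p = 0.00981 from limma). Leaving out each library in turn gave 2715 to 4802 genes higher and 2961 to 4890 lower, 815 to 1628 and 777 to 1507 with the fold criterion (the highest without Ctrl replicate 3), 2 to 3 markers higher and 1 to 2 with the fold criterion, and 9 to 14 and 6 to 10 genes of the other lists higher and lower with the fold criterion. ALCAM ranged from 0.84 to 1.21, BMI1 from 1.19 to 1.73, CD24 from 0.31 to 0.95, CD44 from 0.0036 to 0.14 and SOX2 from -0.12 to 0.52, with SOX2 at -0.12 and the CD24 call both without Ctrl replicate 3. The cause of these changes was not tested.

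Same-numbered Ctrl and NE libraries had correlations of -0.163, 0.0799 and -0.151 between their deviations from the group means. Ctrl replicate 3 with NE replicate 1 had 0.216. The deviations of 3 libraries sum to 0 within a group. These correlations therefore cannot tell whether same-numbered libraries shared a culture or a batch. With the replicate block 3150 genes were higher and 3358 lower, and among the markers no call changed. Beyond the tested markers, ABCG2 kept its call in 11 of 17 alternatives, COL1A1 in 8 and CXCR4 in 3, the last losing it with the replicate block, TMM scaling, edgeR and DESeq2. The limit given for a library with 0 reads covers counting error only. The 95% intervals are limma intervals and measure the spread between these libraries. At this depth 5 markers were too low for a test.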
